A study of Mus musculus with 2 samples.

Results

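Wide footprints are stretches of 30 bp or more of accessible DNA in which DNase I cut less often than in the flanking sequence. They were examined in the left cerebral cortex of 2-month-old male B6CASTF1/J mice, first-generation hybrids of C57BL/6J and CAST/EiJ. The series held 1 group of 2 biological replicates with neither treatment nor control, so it allows no comparison between conditions. The labels name whole tissue and no sort, and a footprint cannot be assigned to a cell type. A footprint row of either sample was kept when it was at least 30 bp wide and overlapped a row of at least 20 bp in the other sample, and overlapping rows were merged. This gave 10201 wide footprints among 94158 footprints found in both samples, or 10.8%, and among 415583 merged footprints in all. They were set against 28633 narrow footprints of 7 to 12 bp that were also found in both samples and touched no wide one. Width chose both classes, so width is described here and not tested.

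DNase I is a nuclease that cuts DNA wherever chromatin is open, and a protein that sits on the DNA shields the bases beneath it. A sequence-specific factor with a small DNA-binding domain shields about its own recognition site, while a protein with many zinc fingers, an assembly of several factors or a polymerase initiation complex can shield a longer run. CTCF, a zinc finger protein that halts loop extrusion by cohesin, is the textbook case of a long contact. At promoters the usual occupants are the SP and KLF zinc finger proteins, NFY, NRF1 and CREB, and at tRNA genes they are the RNA polymerase III factors TFIIIC and TFIIIB.

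The sequences below are examples, and not all of them show the features described later. They are read from the C57BL/6J reference (mm10, GRCm38), so CAST/EiJ differences are not shown. Each is a whole wide footprint written 5′ to 3′ on the strand of the named motif, and capitals mark that motif. The first set compares CTCF sites of the shorter and of the longer kind, picked after the values were seen as those under the tallest peaks with an exact core match. The 4 shorter ones measured 28 to 33 bp in both samples.
Kif1b promoter, chr4:149307902-149307933, minus strand: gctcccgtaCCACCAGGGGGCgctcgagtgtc
Upstream of Med13, chr11:86358443-86358474, minus strand: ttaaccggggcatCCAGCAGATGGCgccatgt
Nuak1 intron, chr10:84438192-84438222, minus strand: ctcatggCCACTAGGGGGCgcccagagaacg
4632415L05Rik promoter, chr3:19894790-19894820, minus strand: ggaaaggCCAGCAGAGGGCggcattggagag
The 4 longer ones measured 41 to 48 bp in both samples, and the added length lies to the left of the core. In that stretch the Faf2 footprint also holds a GC box of SP and KLF proteins. The Ccdc110 footprint holds a site of the early growth response factors there.
Near Gm44738, chr7:73618504-73618549, minus strand: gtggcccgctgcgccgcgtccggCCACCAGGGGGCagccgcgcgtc
Faf2 promoter, chr13:54621663-54621708, minus strand: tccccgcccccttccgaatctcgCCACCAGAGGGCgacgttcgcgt
Lsm11 promoter, chr11:45945003-45945049, plus strand: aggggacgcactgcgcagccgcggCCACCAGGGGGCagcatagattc
Ccdc110 promoter, chr8:45934941-45934987, minus strand: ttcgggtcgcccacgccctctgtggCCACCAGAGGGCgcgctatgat

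The next set shows, for other motifs that were more frequent in wide footprints, the holder with the largest smaller-of-both width that could be printed here. The smaller-of-both width is the narrower of the widths in the 2 samples. Choice by width does not make an example typical. The NRF1 and GC box examples are intergenic, while 95.4% and 84.3% of the members with these motifs were at promoters.
NRF1, intergenic, chr16:4475252-4475301, plus strand: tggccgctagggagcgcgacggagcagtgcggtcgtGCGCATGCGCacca
CRE of CREB, Rn7s2 promoter, chr12:69361491-69361539, plus strand: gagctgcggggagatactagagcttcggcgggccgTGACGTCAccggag
NFY CCAAT box, Foxn3 intron, chr12:99392118-99392176, minus strand: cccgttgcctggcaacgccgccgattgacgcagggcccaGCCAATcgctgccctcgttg
SP and KLF GC box, intergenic, chr7:35234833-35234894, minus strand: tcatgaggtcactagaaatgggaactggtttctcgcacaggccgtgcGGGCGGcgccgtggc
ZBTB33 palindrome, Mau2 promoter, chr8:70042735-70042781, plus strand: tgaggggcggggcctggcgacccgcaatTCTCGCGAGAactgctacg
Pol III B box in a tRNA gene, chr17:23548766-23548805, minus strand: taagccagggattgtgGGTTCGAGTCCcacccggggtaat

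The last set holds 4 of the 10 widest members of mostly single-copy sequence. The first holds a pair of CTCF cores with 1 mismatch each, in capitals, the next an AP-1 site, and the others none of the motifs searched. The members at Zmynd8 and Rbm27, which are not printed, each hold a CCAAT box.
Col18a1 intron, chr10:77130730-77130797, plus strand: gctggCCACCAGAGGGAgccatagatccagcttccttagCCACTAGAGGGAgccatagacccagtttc
Upstream of AC154766.4, chr17:23550323-23550388, plus strand: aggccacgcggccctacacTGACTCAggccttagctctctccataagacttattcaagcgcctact
R3hdm1 promoter, chr1:128103187-128103248, plus strand: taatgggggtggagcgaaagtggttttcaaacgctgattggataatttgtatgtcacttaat
Upstream of Shf, chr2:122375564-122375627, plus strand: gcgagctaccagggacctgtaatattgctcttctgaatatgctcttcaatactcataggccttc

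Rows of 30 bp or more made up 4.74% of 280338 footprint rows in replicate 1 and 2.68% of 245020 in replicate 2. Of these wide rows, 65.9% in replicate 1 and 92.2% in replicate 2 met the overlap rule, while 15.4% and 16.1% of rows of 7 to 12 bp touched a row of that class in the other sample. A longer row has more bases that can overlap, and the 2 shares are therefore given side by side without a test. The members' widest row had a median of 33 bp in replicate 1, with quartiles of 31 and 41 bp and a maximum of 83 bp. In replicate 2 the median was 31 bp, with quartiles of 26 and 36 bp and a maximum of 71 bp. The width was larger in replicate 1 at 6802 members, larger in replicate 2 at 2850 and equal at 549, and the median absolute difference was 6.00 bp. Across members, which the width rule chose, the Spearman correlation of the widths in the 2 samples was low, at 0.191. Both samples reached 30 bp at 4585 members and 40 bp at 1230. The files hold no read counts, so the depth behind each footprint is unknown. The 2179 members whose widest row was 30 or 31 bp lay just inside the threshold: 39.7% were at promoters, their windows had 60.7% GC, and 21.1% held an exact CTCF core. The 2264 shared footprints of 28 or 29 bp just outside it had 43.3%, 61.0% and 16.1%.

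**Figure D1:**
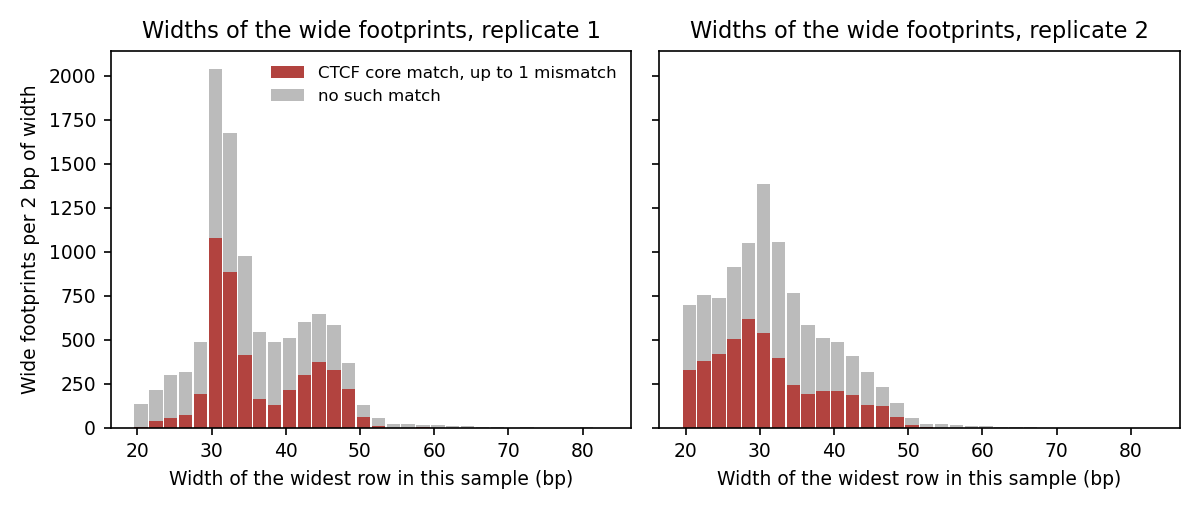
Number of wide footprints per 2 bp of width in replicate 1 (left) and replicate 2 (right), with those that held a CTCF core match of up to 1 mismatch in red and the others in grey. Replicate 1 has a tall maximum just above 30 bp and a lower one between 40 and 50 bp, both with many CTCF matches. Replicate 2 has 1 broad maximum and 4159 members between 20 and 29 bp. Rows under 30 bp are shown only where the other sample reached 30 bp, so the rule shapes both curves around 30 bp. Among all rows, 4359 were of 28 or 29 bp and 3631 of 30 or 31 bp in replicate 1, and 2392 and 1606 in replicate 2.

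In the main comparison wide footprints were about as often at promoters as narrow ones, less often in introns and more often between genes. A promoter was taken as the 500 bp on either side of an annotated start site (GENCODE M21). It held 40.9% of wide and 39.7% of narrow footprints, a difference of 1.12 percentage points (95% interval -0.0260 to 2.27). It did not pass the test, a least-squares fit with errors clustered by open region (Benjamini-Hochberg adjusted p = 0.0735, n = 10201 wide and n = 28633 narrow footprints). Differences given below with an interval passed it at an adjusted p under 0.05 unless a sentence says otherwise. Introns held 25% of wide and 30.4% of narrow footprints (difference -5.42 points, 95% interval -6.41 to -4.42). Intergenic sequence held 29.8% and 25.6% (difference 4.21 points, 3.19 to 5.22). Coding exons held 0.882% and 1.49% (difference -0.613 points, -0.846 to -0.379), and UTRs outside promoters held 1.83% and 1.32% (difference 0.513 points, 0.236 to 0.790). These intervals and p-values measure the spread between open regions, since each footprint merges rows of both samples. They do not measure the spread between mice, for which the series holds 2 biological replicates. The fits of 1 replicate alone, here and below, dropped the overlap rule for both classes. They held 6556 wide and 182467 narrow footprints in replicate 2, and 13275 and 191056 in replicate 1. Such values therefore differ from the main ones in the narrow class as well as in the sample. The promoter difference depended on the choice of footprints. It was 20.8 points in replicate 2 alone and -0.892 points in replicate 1 alone. Among footprints inside a peak of each sample it was -4.77 points. In that subset it was -19.8 points with log2 peak height as a covariate. Without footprints holding a CTCF match of up to 2 mismatches, an alternative chosen after seeing the data, it was 36 points. For introns, intergenic sequence and the other places only the main comparison is given. The shares of all places add up to the whole, so some of these differences must have shifted as well.

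The place within the promoter did differ. Of 4168 promoter members 52.7% were centred within 100 bp upstream of the nearest start site, against 36.5% of 11378 narrow promoter footprints (difference 16.1 points, 95% interval 14.4 to 17.9). Within 100 bp downstream lay 14.6% of wide and 26.1% of narrow promoter footprints (difference -11.5 points, -12.8 to -10.1). The 50 bp just upstream of the start site alone held 32.1% of the wide promoter footprints. This stretch is where the core promoter and its proximal factor sites lie.

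**Figure D2:**
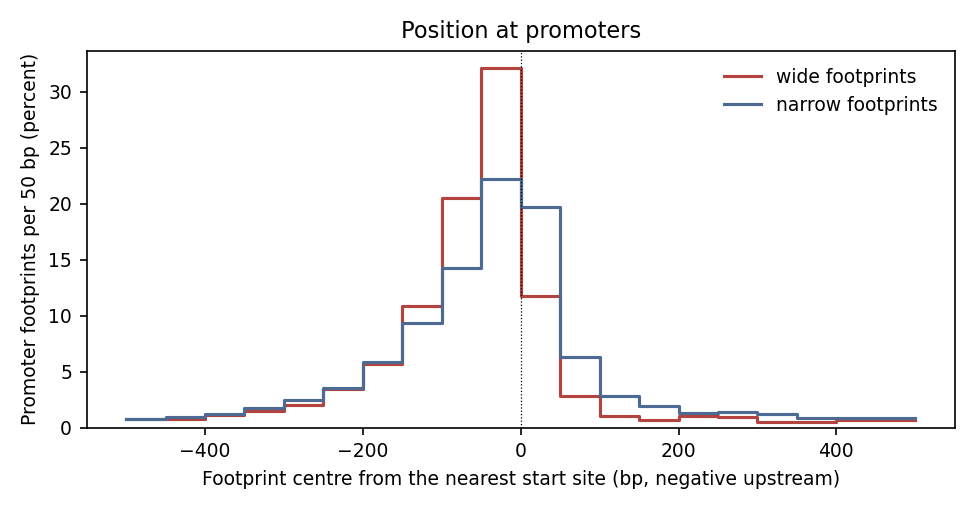
Promoter footprints per 50 bp by the position of their centre relative to the nearest start site, as a percent of the promoter footprints of each class, wide in red and narrow in blue. The wide curve is above the narrow one from -150 bp to the start site, reaching 32.1% in the last 50 bp, and below it after the start site.

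Wide footprints were more GC-rich and held more CpG than narrow ones in a window of 50 bp centred on each. Mean GC was 60.4% in wide and 57.2% in narrow windows (difference 3.23 points, 95% interval 2.98 to 3.48), and there were 2.96 and 2.36 CpG per window (difference 0.609, SE 0.0311). At promoters the means were 66.8% GC in wide and 63.8% in narrow windows, with 4.95 and 4.06 CpG. Beyond 2000 bp from every start site they were 55.3% and 52.1% GC, with 1.47 and 1.10 CpG. Repeat-masked bases made up 6.02% of wide and 7.33% of narrow windows (difference -1.31 points, -1.72 to -0.907). These sizes depended on the choice of footprints. In replicate 2 alone, without the overlap rule, the differences were 8.72 points of GC and 1.57 CpG, and in replicate 1 alone 1.65 points and 0.373 CpG. With the same wide footprints against all rows of 7 to 12 bp of either sample, the differences were 5.18 points and 0.951 CpG. Among the 9423 wide and 17908 narrow footprints inside a peak of each sample, a subset chosen after seeing the data, they were 2.10 points and 0.353 CpG. In that same subset with log2 peak height as a covariate the GC difference was -0.0124 points (SE 0.128), which did not pass the test, and the CpG difference turned to -0.274 (SE 0.0294), which did.

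Wide footprints sat nearer the middle of their peaks than narrow ones, and their peaks were taller on average. Of the wide footprints 92.4% lay inside a peak of each sample, against 62.5% of the narrow ones. Among these, 63.8% of 9423 wide footprints were centred within 20 bp of the peak centre, against 17.4% of 17908 narrow ones, and the mean distance was 24.4 bp for wide and 54.5 bp for narrow footprints (difference -30.1 bp, SE 0.426, 95% interval -31.0 to -29.3). The mean distance held per sample, at 24.4 and 57.0 bp by the peaks of replicate 1 and 26.3 and 54.1 bp by those of replicate 2. Peaks around wide footprints were narrower, with mean widths of 215 bp and 250 bp (difference -34.8 bp, SE 1.03). The peak height is the authors' signal value for the peak, of unstated scaling, so levels are not compared between samples. Its median was 2.42 around wide and 1.45 around narrow footprints in replicate 1, and 1.45 and 1.08 in replicate 2. On the log2 scale, averaged over samples, the difference was 0.508 (SE 0.0138), and with the rows of each replicate alone it was 0.781 in replicate 1 and 1.08 in replicate 2. Whether the width rule favours taller peaks was not tested. Members lay in 8955 of 44745 open regions shared by both samples, or 20%, and 778 regions held more than 1, up to 4.

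**Figure D3:**
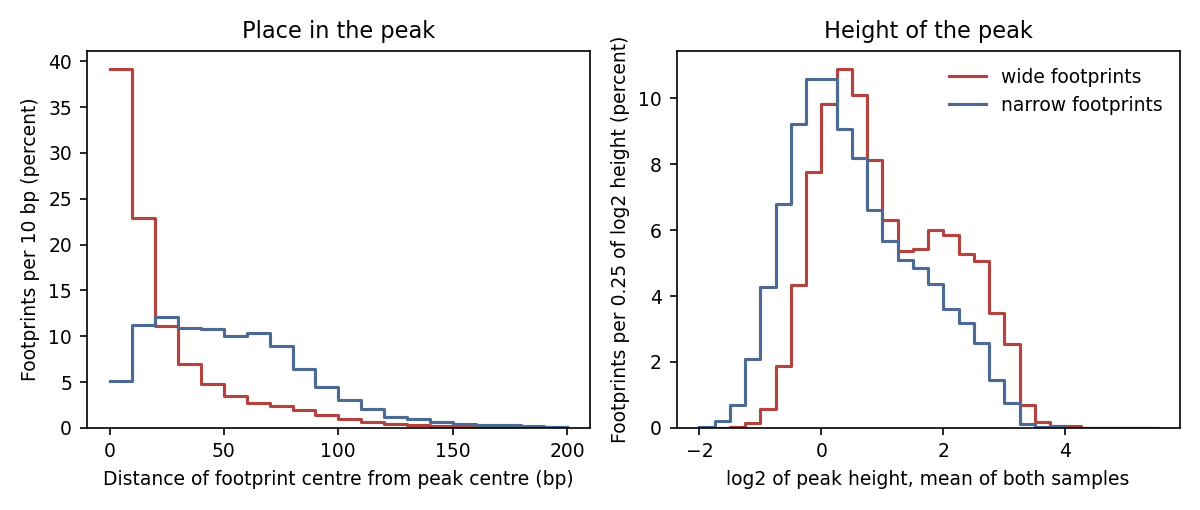
Distance of the footprint centre from the peak centre in bins of 10 bp (left) and log2 of the peak height averaged over both samples in bins of 0.25 (right), as a percent of the footprints of each class inside a peak of each sample, wide in red and narrow in blue. The wide footprints pile up within 20 bp of the centre, where 63.8% of them and 17.4% of the narrow ones lie, and their heights reach further to the right.

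CTCF was the motif that set the wide footprints most apart. Of 24 motifs searched on both strands of the 50 bp windows, 10 were more frequent in wide footprints and 5 less frequent at an adjusted p under 0.05, that is 41.7% and 20.8% of the motifs tested. Matches of different motifs may overlap, and a match is a description of letters and not of binding. An exact CTCF core was found in 1911 wide footprints, 18.7% (exact binomial 95% interval 18 to 19.5), in 0.744% of narrow ones (0.648 to 0.850) and in 4.66% of all footprints found in both samples. The 95% interval of the difference was 17.2 to 18.8 points. With up to 1 mismatch, an alternative chosen after seeing the data, the shares were 44.7% and 2.68%. Away from start sites by more than 2000 bp such a match was in 69.4% of wide and 3.79% of narrow footprints, and at promoters in 12.2% and 1.05%. The 4558 members with such a match were 76.2% distal, and their peaks were lower than those of the members as a whole, with medians of 1.72 in replicate 1 and 1.05 in replicate 2. They were centred a median of 8.75 bp from the peak centre.

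The other motifs called higher were mostly those of promoter factors. NRF1, a factor of nuclear genes for mitochondrial proteins whose palindromic site is searched by name, was in 3.61% of wide and 0.751% of narrow footprints (difference 2.86 points, 95% interval 2.47 to 3.24). The cyclic AMP response element of CREB, TGACGTCA, was in 1.66% and 0.237% (difference 1.42 points, 1.17 to 1.67). The GC box of SP and KLF proteins, GGGCGG, was in 15.3% and 9.62% (difference 5.70 points, SE 0.408), but also in 15.9% of all shared footprints. Its difference was 12 points in replicate 2 alone, 3.81 in replicate 1 alone and 1.90 from 40 bp on. Inside a peak of each sample it was 4.06 points, and 0.169 (SE 0.424) with the height covariate, which did not pass. The CCAAT box of NFY, ACCAAT or GCCAAT, was in 5.89% and 4.59% (difference 1.31 points, 0.774 to 1.84) but inside a peak of each sample the difference was 0.420 points (SE 0.304) and did not pass, and with the height covariate it turned to -1.36 points (SE 0.311), which did. It was 3.02 points in replicate 2 alone. NRF1 and the cyclic AMP element kept their sign and their call with that covariate, at 1.59 and 1.2 points. In replicate 1 alone they were 1.89 and 0.895 points, and in replicate 2 alone 4.17 and 1.71. The palindrome of ZBTB33, a methyl-CpG binding protein also called Kaiso, was in 26 wide footprints, 0.255%, and in 0.0629% of narrow ones, and all 26 were at promoters, but this difference did not pass with the height covariate (0.0608 points, SE 0.0529). The site of the early growth response factors, GCGTGGGCG, was in 0.284% of wide and 0.112% of narrow footprints (difference 0.173 points), a call lost in replicate 1 alone (0.0832 points), from 40 bp on (0.0868), in 100 bp windows (0.132) and beyond 2000 bp from start sites (0.00241). The nuclear receptor hexamer AGGTCA was in 1.75% and 1.24%, and the site of the nuclear factor I proteins in 0.529% and 0.346%. Of all shared footprints 0.861% held the nuclear factor I site and 0.323% the early growth response site. The shares in wide footprints were lower than these, but this was not tested. The exact binomial 95% interval of the wide share was 0.398 to 0.690% for the nuclear factor I site. For the early growth response site it was 0.190 to 0.408%, which includes the share of all shared footprints.

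At promoters alone the shares of the GC box and of NRF1, CREB and NFY sites were higher in both classes. The GC box was in 31.6% of wide and 18.3% of narrow promoter footprints, NRF1 in 8.42% and 1.67%, the cyclic AMP element in 3.55% and 0.360%, and the CCAAT box in 10.1% and 6.60%. Beyond 2000 bp from start sites the GC box was in 3.32% and 3.11% and NRF1 in 0.220% and 0.0836%. The cyclic AMP element was in 0.320% and 0.146% there, and the CCAAT box in 2.80% and 3.27%. None of these differences passed the test there. Members with an NRF1 site were 95.4% promoters, centred at a median of -20 bp from the start site, and those with a GC box were 84.3% promoters at -42 bp. Members with a cyclic AMP element were 87.6% promoters at -26 bp, and those with a CCAAT box were 69.9% promoters at -60 bp.

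The 5 motifs called lower were AP-1, MEF2, the POU octamer, the TATA box hexamer and the glucocorticoid receptor site. AP-1, the site of FOS and JUN dimers that neuronal activity induces, is TGACTCA or TGAGTCA, and it was in 0.520% of wide and 2.94% of narrow footprints (difference -2.42 points, 95% interval -2.67 to -2.17). The difference was -1.47 points in replicate 1 alone and -3.02 in replicate 2 alone. Beyond 2000 bp from start sites it was in 0.719% and 4.66%. MEF2, a neuronal and muscle factor family, was in 0.0294% and 0.231%, 3 wide footprints in all (difference -0.201 points, and -0.0923 in replicate 1 alone). The octamer ATGCAAAT was in 0.137% and 0.318%, TATAAA in 0.755% and 1.10%, and the glucocorticoid receptor site in 0.0392% and 0.112%, 4 wide footprints in all. At promoters alone TATAAA was in 0.816% of wide and 0.809% of narrow footprints. Beyond 2000 bp from start sites it was in 0.719% and 1.37%. The remaining 9 motifs did not pass, among them the E-box CAGATG of NEUROD-type factors at 5.18% and 5.07% and the long RE1 site of the neuronal repressor REST at 0.0294% and 0.0524%.

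**Figure D4:**
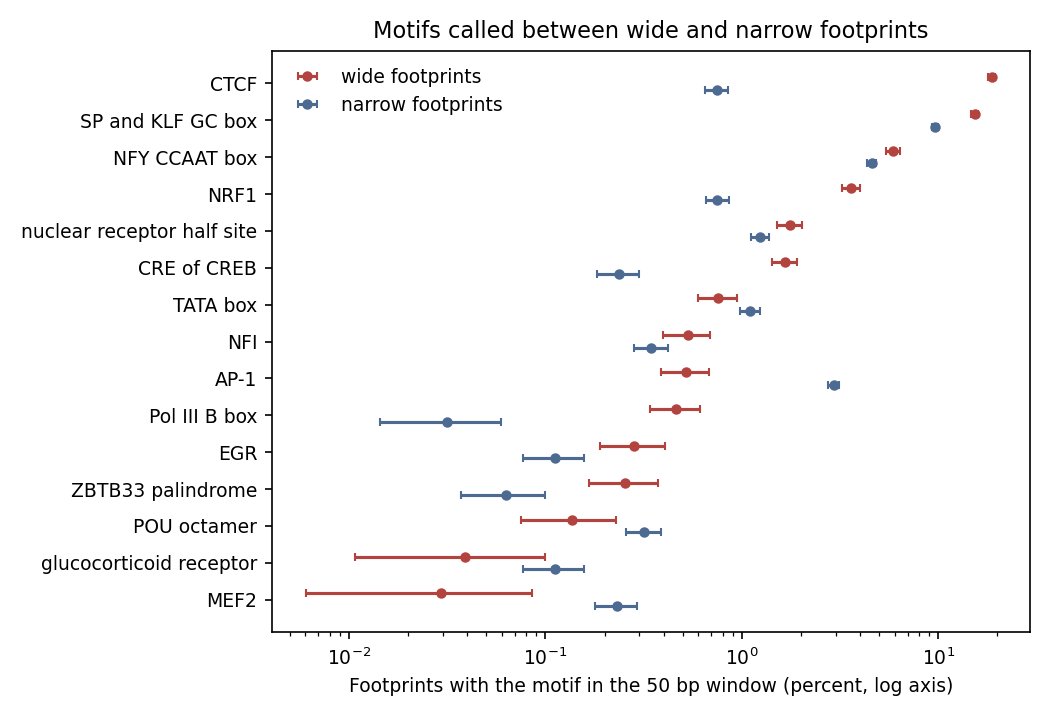
Percent of wide (red) and narrow (blue) footprints whose 50 bp window holds each of the 15 motifs called, on a log axis, with exact binomial 95% intervals that cover counting error only. CTCF has the widest gap, 18.7% against 0.744%, and AP-1 has the largest difference in percentage points among the 5 motifs that are lower in wide footprints, 0.520% against 2.94%.

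The letters themselves were compared over all 6-mers, each taken as one with its reverse complement. In wide windows 388 were more frequent and 773 less frequent at an adjusted p under 0.05, which is 18.7% and 37.2% of those tested. The 6-mer with the largest difference was GCCCCC, in 21.1% of wide and 5.64% of narrow windows. AGGGGG followed with 19.2% and 5.17%. The 10 with the largest positive difference changed to different degrees when windows with a CTCF match were left out. AGGGGG was then in 9.80% and 4.50%, and GCCACC, in 18.7% and 5.47% of all windows, in 5.55% and 4.32%. CACTAG, in 11.7% and 2.30% of all windows, was in 1.45% and 1.54% of windows without a CTCF match of up to 2 mismatches, an alternative chosen after seeing the data. AGGTGG, in 14.6% and 5.12% of all windows, was in 3.46% and 4.30% of these, and so turned lower in wide footprints. CGCCCC, in contrast, was in 18.9% and 7.22% of all windows and in 26.3% and 7.07% of those without CTCF. In the windows without CTCF each of the 10 leading 6-mers was made of C and G alone, with CCGCCC first at 29.6% of wide and 9.73% of narrow windows.

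Among the 10 6-mers with the largest negative difference CCTCCC led with 7.19% of wide and 11.2% of narrow windows, but without CTCF matches it was in 12.6% and 11.3%. AGCTGG was in 3.04% and 6.83%, and the E-box CAGCTG in 2.20% and 5.10%. GACTCA, part of the AP-1 site, was in 1.36% of wide and 4.62% of narrow windows, and in 1.14% and 4.75% of those without CTCF.

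Set the other way round, motifs differed in how often a match in open chromatin lay under a wide footprint. Members covered 3.14% of the bases of the shared open regions, narrow footprints 2.20%, and all footprints found in both samples 14.5%. A match was placed by its central base, so the length of a motif did not by itself keep it out of a narrow footprint, although narrow footprints are fewer bases wide by rule. Of 3801 exact CTCF cores in these regions 48.6% (exact binomial 95% interval 47.0 to 50.2) lay in a wide footprint and 0.447% in a narrow one, and 92.7% lay in some footprint found in both samples. For 826 cyclic AMP elements these shares were 20.5% (17.8 to 23.4), 3.75% and 76.0%, and for 2224 NRF1 sites 16.5% (15.0 to 18.1), 4.14% and 78.3%. Of 29535 GC boxes 6.58% were in a wide footprint, 4.38% in a narrow one and 43.1% in any. Of 10729 CCAAT boxes the shares were 4.74%, 2.61% and 18.5%. Of 103 Pol III B boxes they were 44.7% (34.9 to 54.8), 3.88% and 83.5%.

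CTCF footprints of 2 width classes differed mainly on 1 side of the core. Among members with a core match of up to 1 mismatch, rows of 28 to 33 bp reached a median of 6 bp beyond the 5′ end of the core and 13 bp beyond its 3′ end in replicate 1 (2143 members), and 6 and 12 bp in replicate 2 (1535 members). Rows of 41 to 48 bp reached 22 bp beyond the 5′ end and 11 bp beyond the 3′ end in replicate 1 (1268 members), and 22 and 10 bp in replicate 2 (596 members). The quartiles of the 5′ reach were 21 and 23 bp for the long rows in both samples, and 5 and 6 bp in replicate 1 or 5 and 8 bp in replicate 2 for the short rows. By the medians the added bases of the long rows thus lay upstream of the core, while the 3′ reach was slightly shorter. Single rows varied more. CTCF is known to contact an additional motif upstream of its core at part of its sites. At position -12, counted back from the first base of the core, T was present in 76.9% of long and 40.3% of short rows in replicate 1, and in 73.5% and 45.1% in replicate 2. At position -16 G was present in 74.1% and 32.6% in replicate 1 and in 66.9% and 40.2% in replicate 2, and at -10 C in 70.9% and 35.9% and in 69.6% and 38.4%. The sequence was not used to sort the rows by width, but both values are given as a description, since the width classes were set after the widths were seen. Exact cores were somewhat less frequent in the long rows, 36.8% against 46.0% in replicate 1 and 37.8% against 45.1% in replicate 2. The width class was not fixed to the site: of the 1268 members that were long in replicate 1, 630 (49.7%) were under 36 bp in replicate 2, and 391 were long and 921 short in both. Of the long footprints printed above, only that of Faf2 has the T at -12 and only that near Gm44738 the G at -16. That of Lsm11 alone lacks the C at -10.

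**Figure D5:**
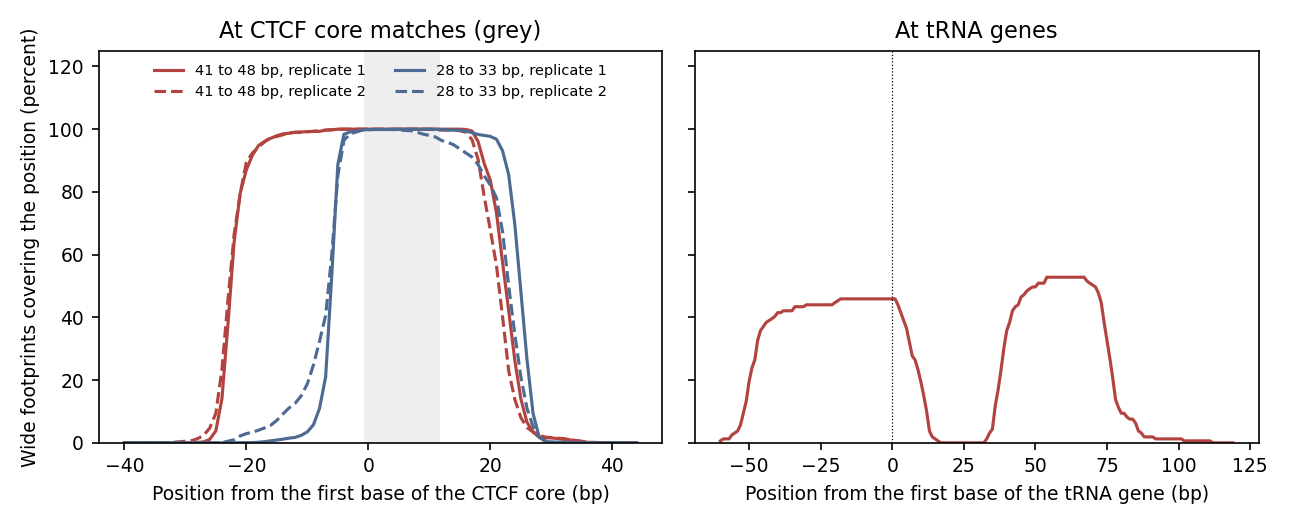
Left, percent of wide footprints covering each position around a CTCF core match of up to 1 mismatch (grey band), for rows of 41 to 48 bp (red) and 28 to 33 bp (blue), replicate 1 as full and replicate 2 as broken lines. Right, percent of the 159 wide footprints at tRNA genes covering each position from the first base of the gene. The long CTCF rows reach a median of 22 bp to the left of the core and the short rows 6 bp, with similar right edges, and the tRNA footprints form 2 blocks, one before the gene and one in its second part.

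Wide footprints also marked tRNA genes, which RNA polymerase III transcribes from promoter elements inside the gene. Of 403 tRNA genes annotated by RefSeq on the assembly, 205 lay in a peak of each sample. A wide footprint overlapped 113 of these 205 (55.1%, exact binomial 95% interval 48 to 62.1) and a narrow one 33 (16.1%, 11.3 to 21.9). Over all footprints, 159 wide ones (1.56%) and 41 narrow ones (0.143%) overlapped a tRNA gene, a difference of 1.42 points (SE 0.151, 95% interval 1.12 to 1.71). Any overlap was counted, and a longer footprint can reach a gene from further away. The width rule can thus add to both contrasts, and by how much was not tested. Of the 159, 86 were centred inside the gene. All 47 wide footprints with the B box, the inner element that TFIIIC binds, were in tRNA genes.

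The tRNA footprints fell into 2 places. In 73 the centre was upstream of the gene, and the median edges lay at -49 and 10 bp from the upstream edge of the gene, the stretch on which TFIIIB is known to assemble. Their median width was 54 bp in replicate 1 and 46 bp in replicate 2, and none was in multi-copy sequence, that is none had 50% or more of the 25-mers of its 50 bp window in more than 1 genomic copy. In the other 86 the centre was inside the gene, with median edges at 39 and 76 bp, widths of 37 and 32 bp, and a B box in 47. Of these 86, 70 were in multi-copy sequence, where a short read may match more than 1 place. Both kinds were found at 42 tRNA genes. The difference in B box share was 0.429 points over all footprints (95% interval 0.294 to 0.565) and 0.0600 points (SE 0.0274) outside multi-copy sequence. Among inner footprints of mostly single-copy sequence, that of n-TRtcg5 measured 43 bp in replicate 1 and 33 bp in replicate 2, with peak heights of 8.50 and 5.46.
n-TRtcg5, B box in capitals, chr7:79466453-79466495, plus strand: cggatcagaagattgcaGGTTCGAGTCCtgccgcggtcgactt

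Motif content changed at the upper end of the widths. Grouped by the mean of both widths, the share of members with a CTCF match of up to 1 mismatch was 44.8% under 30 bp, 45.2% from 30 to 35 bp, 41.8% from 35 to 40 bp, 50.3% from 40 to 45 bp and 47.9% from 45 to 50 bp, and 9.15% among the 142 members of 50 bp or more. The GC box was in 15.9% to 17.3% of members below 40 bp, in 10.8% and 7.12% of the next bins and in 12.7% of the widest. The cyclic AMP element was in 1.57% to 2.33% below 40 bp and in 0.190% and 0.749% of the next bins, and in none of the widest. In the widest bin 54.2% were promoters, the CCAAT box was in 14.8%, and the median peak height was 4.22, against 1.52 to 2.33 in the other bins. Of the 59 members over 50 bp in both samples 13 held a CCAAT box within the footprint, 2 of them more than 1, and 10.2% were in multi-copy sequence.

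The 10 widest members of mostly single-copy sequence had smaller-of-both widths of 60 to 69 bp. The widest, at the promoter of Zmynd8, a chromatin reader, measured 69 bp in replicate 1 and 71 bp in replicate 2 at chr2:165884719-165884790, 4 bp upstream of a start site. It held 3 CCAAT boxes, and its peaks had heights of 6.97 and 4.93. The members at the promoters of R3hdm1 (62 and 61 bp, -83 bp from the start site, heights 6.88 and 8.56) and of Rbm27, a gene for an RNA-binding protein (60 and 63 bp, -40 bp, heights 8.70 and 4.74) also lay within 100 bp upstream of a start site. Another lay 478 bp upstream of Leprot in no peak of either sample and measured 66 and 65 bp. The one in an intron of Col18a1, the collagen XVIII gene, measured 68 and 64 bp under peaks of 3.95 and 2.62. The others lay near Gm24270 (67 and 67 bp), AC154766.4 (64 and 65 bp), Shf (63 and 64 bp), Eef2k (64 and 61 bp) and Trim27 (61 and 61 bp). Choosing by the smaller width favours members of like width in both samples, so their likeness is not a result.

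Of 12324 protein-coding genes with a peak of each sample within 500 bp of a start site, 3519 had a wide footprint in the same distance, 28.6%. Over all 21938 protein-coding genes the share was 16.1%. One wide footprint was found at 2781 genes, 2 at 626, 3 at 100 and 4 or more at 23. Deaf1, a transcription factor gene, and Tmem80 share a promoter region and had 5 each, with smaller-of-both widths of 27 to 30 bp. Hexim2, whose product inhibits the elongation factor P-TEFb, had 5 of 28 to 45 bp, at least 1 of them in fully multi-copy sequence. Among the genes with 4 each, taken in order of name, were 1110032A03Rik, Alg5, Casp2, Dazap2, Exosc8 and Extl3. Of these Casp2 encodes a caspase, Alg5 a glycosylation enzyme, Exosc8 a subunit of the RNA exosome and Extl3 an enzyme of heparan sulphate synthesis, and Alg5 and Exosc8 share their 4 footprints.

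Ribosomal protein, spliceosome and immediate early genes had the highest shares of accessible promoters with a wide footprint among the 16 lists, and 6 of the 8 cell type lists had none. Of 55 cytosolic ribosomal protein genes 23 had one (41.8%), of 48 mitochondrial ribosomal protein genes 21 (43.8%) and of 30 spliceosome genes 13 (43.3%), beside 28.6% of all genes with an accessible promoter. Proteasome subunit genes had one at 7 of 31 (22.6%) and circadian clock genes at 4 of 16 (25%), both near that share. Immediate early genes, which neuronal activity switches on, had one at 9 of 18 (50%). These counts are descriptions with no test.

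The examples were chosen as the widest of their lists, so their widths are not a result. Among the ribosomal proteins, Rpl5 carried a wide footprint of 49 bp in replicate 1 and 48 bp in replicate 2, centred 35 bp upstream of the start site (chr5:107900442-107900492, position -35). That of Rpl26 measured 51 and 46 bp at -117 bp, and that of the mitochondrial Mrpl17 48 and 46 bp at -172 bp. Psmb3, a proteasome core subunit, had one of 44 and 42 bp at -52 bp, and Snrnp70, the U1 snRNP protein, one of 38 and 40 bp at 13 bp with an NRF1 match in its window. Jun, a subunit of AP-1, had 3 wide footprints, the widest of 36 and 35 bp at -96 bp, and Arc, a regulator of synaptic strength, had 2, the widest of 35 and 38 bp at -35 bp. The widest at Egr1 measured 32 and 34 bp at 201 bp, inside the transcribed region.

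The markers of cortical cell types showed which promoters were accessible at all. A peak of each sample lay at the promoter of 11 of 12 pan-neuronal, 10 of 12 cortical layer, 9 of 12 astrocyte, 6 of 12 oligodendrocyte, 5 of 12 excitatory, 5 of 12 inhibitory, 2 of 12 microglial and 1 of 12 endothelial genes. Wide footprints were found at 1 of the 10 cortical layer promoters, that of Tle4, a Groucho family corepressor, at 27 and 35 bp under peaks of 13.5 and 10.9. They were found at 2 of the 9 astrocyte promoters. That of Gfap, the intermediate filament of astrocytes, measured 34 and 30 bp at -88 bp, held an exact CTCF core and lay under peaks of 1.59 and 0.912. At Sox9 it measured 28 and 31 bp at -119 bp. The accessible pan-neuronal, excitatory, inhibitory, oligodendrocyte, microglial and endothelial promoters had none, beside 28.6% of all accessible promoters, and with 1 to 11 accessible genes a list these counts are too small to read further. Of postsynapse and glutamate receptor genes 2 of 14 had one, Shank3 (47 and 37 bp) and Grin2a (30 and 24 bp), and of REST target genes 2 of 14, Chga (37 and 37 bp) and Scn2a (44 and 20 bp).

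By chromosome, the autosomes held 3.09 to 6.94 wide footprints per Mb with a median of 3.92, and the X chromosome 0.994, in male mice with a single X. Per 100 narrow footprints the autosomes had 32.2 to 40.4 wide ones and the X chromosome 26.4. The Y chromosome had 1.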

How the data were processed

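DNase-seq maps DNA that the nuclease DNase I can cut. Per the labels, 2 biological replicates of left cerebral cortex were placed on mm10. The authors deposited, per sample and not pooled, footprint intervals with a constant score, which was not used, and 2 peak lists with a signal value per peak. No source used here names the callers of footprints and peaks, or states whether DNase I cutting bias was corrected. The shorter peak list gave the peaks, and overlapping peaks were joined. The false discovery rate tracks were not used.

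Wide and narrow footprints were compared by a least-squares fit with class as the term, a sandwich error clustered by open region, two-sided normal p-values and Benjamini-Hochberg adjustment within each family (Python 3.11.15, numpy 2.4.6, scipy 1.17.1). Shares carry exact Clopper-Pearson intervals, which cover counting error only. Depth is unknown. The fit was tried on simulated presence of 6-mers with known changes, and the other measures were not simulated. Sequence and genes came from GRCm38.p6, GENCODE M21 and RefSeq tRNA genes. Motifs of 10 or more letters are given by name. The members, gene lists, motifs and alternatives were chosen with earlier results of these data known. Named were the 10 widest single-copy members, 10 genes with most members, ties by name (1 is not reported here), list genes by width, and the 10 6-mers with the largest difference each way. CTCF and tRNA examples were chosen after their values were seen.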

Additional observations from a re-analysis of the deposited data

How the results depend on the processing

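No paired analysis was possible because the series has 1 group and the footprints of both replicates were merged. The count of 10201 wide footprints was 4585 when 30 bp was required in both samples and 3527 at 40 bp, and ranged from 6556 to 13275 with each sample alone. The promoter difference of 1.12 points ranged from -0.892 to 20.8 points with each sample alone, where the overlap rule was dropped for both classes. It was 4.15 points with 30 bp in both samples, -4.43 at 40 bp, 9.84 against all rows of 7 to 12 bp, 1.51 outside multi-copy sequence, -4.77 inside a peak of each sample, -19.8 in that subset with log2 peak height as a covariate, and 36 without CTCF matches (the subset and the last chosen after seeing the data). The covariate can be fitted only inside peaks, where GC (2.10 points), CpG (0.353 per window) and the CCAAT box (0.420 points) kept their sign without it. With it they turned to -0.0124, -0.274 and -1.36. The CCAAT box difference also turned beyond 2000 bp from start sites (-0.469 points), where it did not pass. Promoter footprints alone gave 588 called 6-mers, against 1161. The NEUROD-type E-box, 0.108 points and not called, ranged from -1.07 to 0.513 with each sample alone and was 1.87 with the height covariate, -0.0505 with 30 bp in both samples, -0.150 against all narrow rows, -1.06 in windows of 100 bp, -0.193 at promoters and -2.26 without CTCF matches. The distance from the peak centre (-37.4 to -23.4 bp) and log2 peak height (0.472 to 1.08) kept direction and call in every alternative run, as did the CTCF (3.96 to 42 points) and AP-1 (-3.94 to -0.453 points) differences, and 10 to 17 motifs were called. The causes were not tested. With no read counts in the files, what depth limits cannot be given.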
